A study of Mus musculus with 2 samples.

Results

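The 10 genes described here encode the MHC class II molecules and the costimulatory molecules of antigen-presenting cells. They were taken by name, out of 14662 genes with a value in the series. They are the class II chains H2-Aa, H2-Ab1 and H2-Eb1, the peptide loading factors Cd74, H2-DMa and H2-DMb1, the transcriptional coactivator Ciita, and the costimulatory genes Cd80, Cd86 and Cd40. RNA was measured in wild-type (WT) mouse bone marrow cells in 2 libraries. In the first (M), the cells had received M-CSF, the growth factor of macrophages. In the second (MR), they had received RANKL, the osteoclast differentiation factor, as well as M-CSF. The labels describe 2 days with M-CSF followed by 2 days with M-CSF and RANKL, and the study's culture method gives a longer second step. With 1 library per condition no difference has a replicate check, no p-value was computed, and each value describes these libraries. Strain, sex and age of the mice are not given in the labels, and the mice behind each library are not named.

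MHC class II molecules present peptides from the endosomes to CD4+ T cells. An alpha and a beta chain assemble with the invariant chain Cd74, which fills the peptide groove until H2-DM, a dimer of H2-DMa and H2-DMb1, exchanges its last fragment for a peptide. Transcription of these genes is switched on by Ciita, which binds no DNA itself and is held at class II promoters by factors on the X and Y boxes. A T cell also needs costimulation, which Cd80 and Cd86 give through Cd28 on the T cell, while Cd40 receives the signal of the T cell ligand Cd40lg. Macrophages carry class II at a low level until interferon gamma induces Ciita, and osteoclasts arise from the same lineage.

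The promoters of 3 class II genes are shown for the letters of the X and Y boxes in them, and the H2-DMa window contains the place where the MR locus of that gene began. RefSeq windows on GRCm38.p6, from 250 bases before to 50 bases after the annotated start, were found for 5 of the 10 genes. They are written 5′ to 3′ along the gene. In the class II windows of H2-Aa, H2-Eb1 and H2-DMb1, capitals mark the Y box ATTGG and, before it, the X box core AACNGATG or the X2 box TGACGTCA. In H2-DMa, capitals mark the bases that lay within the locus assembled in MR.
H2-Aa (chr17:34287774-34288073, minus strand): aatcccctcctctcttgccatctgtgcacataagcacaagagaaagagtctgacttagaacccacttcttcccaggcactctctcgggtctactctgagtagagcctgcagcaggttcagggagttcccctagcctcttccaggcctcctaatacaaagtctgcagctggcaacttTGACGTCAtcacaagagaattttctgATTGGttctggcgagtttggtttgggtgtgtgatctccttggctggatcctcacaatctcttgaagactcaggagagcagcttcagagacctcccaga
H2-Eb1 (chr17:34305617-34305916, plus strand): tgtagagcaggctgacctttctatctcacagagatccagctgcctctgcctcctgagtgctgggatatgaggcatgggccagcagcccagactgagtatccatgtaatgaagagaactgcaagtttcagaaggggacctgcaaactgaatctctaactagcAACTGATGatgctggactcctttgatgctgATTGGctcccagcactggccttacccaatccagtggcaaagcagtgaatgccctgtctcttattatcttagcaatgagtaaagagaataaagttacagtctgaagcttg
H2-DMb1 (chr17:34152941-34153240, plus strand): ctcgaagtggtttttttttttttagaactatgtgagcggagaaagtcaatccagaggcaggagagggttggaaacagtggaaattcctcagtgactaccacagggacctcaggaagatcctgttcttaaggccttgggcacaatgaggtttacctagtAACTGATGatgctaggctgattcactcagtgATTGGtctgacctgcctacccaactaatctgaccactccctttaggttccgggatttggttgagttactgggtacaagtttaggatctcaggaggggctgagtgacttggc
H2-DMa (chr17:34122582-34122881, plus strand): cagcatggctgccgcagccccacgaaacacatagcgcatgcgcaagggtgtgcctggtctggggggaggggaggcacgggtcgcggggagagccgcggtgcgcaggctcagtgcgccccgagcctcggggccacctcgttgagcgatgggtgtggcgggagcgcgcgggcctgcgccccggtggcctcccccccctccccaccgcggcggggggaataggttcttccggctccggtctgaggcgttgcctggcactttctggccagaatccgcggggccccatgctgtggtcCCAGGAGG

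Each motif was searched on both strands. AACNGATG and TGACGTCA were chosen after these windows had been read, so that their matches are a description of the windows they were chosen on. In H2-Eb1 and H2-DMb1 the X box core began 89 and 92 bases before the start, and 22 and 23 bases separated it from the Y box. In H2-Aa the X2 box began 74 bases before the start, with 18 bases between it and the Y box. Of 32817 RefSeq windows of this length, 37.4% held ATTGG, 2.32% held AACNGATG and 1.79% held TGACGTCA. A longer X box core, in 0.192% of windows, and the looser CNACNNATG, in 7.23%, matched H2-Eb1 and no other of the 5 genes, at bases that overlap AACNGATG. H2-Eb1 had another ATTGG on the opposite strand, 35 bases before the start. The upstream H2-DMa window held none of the X and Y box letters, and another RefSeq window of H2-DMa held ATTGG and no X box. That other window starts at 34125268, and the H2-DMa locus of M began further downstream, at 34135609. The bases before the M start were in neither window and were not searched. An NF-kappaB site was matched in 50.8% of all windows, and in those of Cd80, H2-Aa, H2-DMa and H2-Eb1. A match is only a description of the letters in the window.

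The class II chains and Cd74 differed between the cultures in TPM by less than their counting error, whereas Cd86, Cd40 and H2-DMa were lower in MR by 4.25, 2.96 and 2.66 times. H2-DMb1 in MR was at 0.665 of its level in M. Cd80 and Ciita were low in both cultures, and their ratios had wide counting intervals around 1. Values are TPM, transcripts per 1000000 after scaling for length, summed over the assembled loci of a gene. Intervals are 95% counting intervals from the approximate number of read pairs, and say nothing of how repeated cultures would vary. The depth was about 3.63 Gb of aligned bases in M and 2.98 Gb in MR. A log2 ratio compares MR with M after 1 is added to each TPM.

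H2-Aa, the alpha chain of I-A, had a TPM of 41.5 in M against 35.5 in MR, and the ratio of MR to M was 0.857 (0.685 to 1.07). Its partner, the beta chain H2-Ab1, had 32.5 in M against 36.2 in MR, with a ratio of 1.11 (0.913 to 1.35). H2-Eb1, the beta chain of I-E, had 37.4 in M against 35.4 in MR, with a ratio of 0.948 (0.774 to 1.16). All 3 intervals include 1. The chains were also close to each other, and H2-Aa stood at 1.28 times H2-Ab1 in M and 0.983 times in MR. The alpha partner of I-E is listed in the annotation as the pseudogene H2-Ea-ps, and no locus was given to it or to H2-Eb2 in either culture.

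Cd74, the invariant chain, was the most abundant of the 10 genes, at a TPM of 129 in M against 126 in MR, with a ratio of 0.978 (0.886 to 1.08). It stood at 3.47 times the mean of the 3 class II chains in M and 3.53 times in MR. By level it lay at the 91.1st percentile of the genes tested in M and at the 90.3rd in MR. For scale, H2-K1, a class I heavy chain, was at 35.3 times the summed class II chains in M and 22.3 times in MR.

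H2-DMa had a TPM of 31.1 in M but 11.7 in MR, and was thus 2.66-fold lower in MR (1.90 to 3.72). The size is uncertain, because its loci began at different 5′ ends in M and MR. Its log2 ratio in coverage, -2.09, lay beyond this interval. The interval is centred on the TPM ratio, and only its width comes from the read pairs, about 345 in M and 38 in MR. H2-DMb1, the other chain of the same dimer, had 35.6 in M and 23.6 in MR, with a ratio of MR to M of 0.665 (0.539 to 0.820). Both intervals exclude 1. Relative to the mean of the 3 class II chains, H2-DMa stood at 0.837 in M and 0.327 in MR, and H2-DMb1 at 0.959 and 0.662. H2-DMb2, a close relative of H2-DMb1 in the adjacent position, had 3.78 in M and 3.60 in MR. Reads shared by H2-DMb1 and H2-DMb2 could be split between them, and the tables hold no reads.

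Ciita had a TPM of 3.22 in M against 3.89 in MR, with a ratio of 1.21 (0.571 to 2.55). About 23 read pairs of M and 9 of MR lie behind it, so that a difference of this size was not detectable at this depth. The read pairs were fewer in MR although the summed TPM was higher, and the pieces summed were not the same in M and MR. The direction of the Ciita difference is therefore not fixed. In either culture Ciita was the lowest of the 10 genes.

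**Figure D1:**
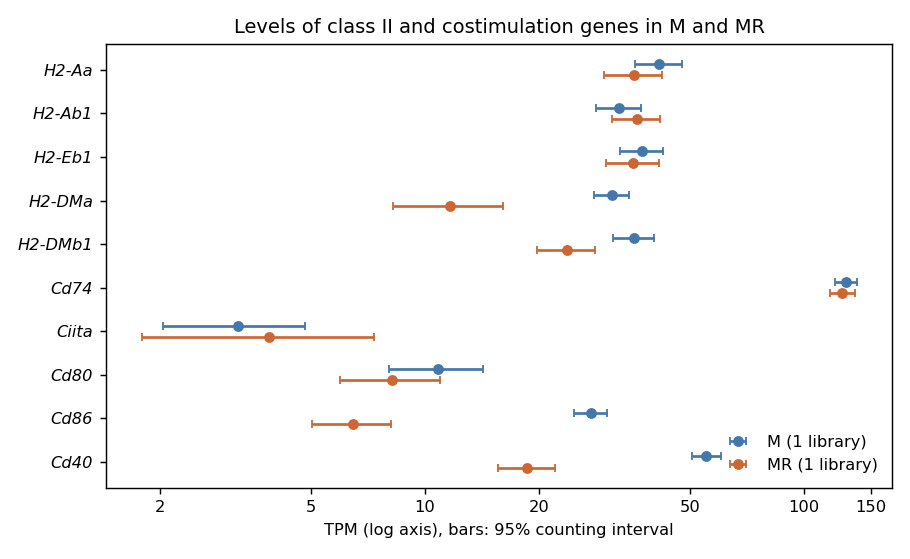
Level of each of the 10 genes in M and MR, as TPM on a log axis, with 1 library per condition and bars for the 95% counting interval. The intervals of both libraries overlap for H2-Aa, H2-Ab1, H2-Eb1, Cd74, Ciita and Cd80 and stand apart for H2-DMa, H2-DMb1, Cd86 and Cd40.

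Cd86, the B7 molecule that resting antigen-presenting cells carry, had a TPM of 27.4 in M but 6.45 in MR. It was 4.25-fold lower in MR (3.30 to 5.47), the largest difference among the 10 genes in TPM. Cd80, the related B7 molecule, had 10.8 in M against 8.20 in MR, with a ratio of 0.759 (0.510 to 1.13) whose interval includes 1. The order of the 2 genes therefore differed between the cultures. Cd86 stood at 2.54 times Cd80 in M and at 0.787 times in MR, where their counting intervals overlap. Cd40, the receptor for T cell help, had 55.2 in M and 18.6 in MR and was 2.96-fold lower (2.45 to 3.58). It was the second most abundant of the 10 genes in M and the sixth in MR.

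In M, the levels fell in the order Cd74, Cd40, H2-Aa, H2-Eb1, H2-DMb1, H2-Ab1, H2-DMa, Cd86, Cd80 and Ciita. Counting intervals of neighbours overlapped from H2-Aa down to Cd86 and were separate at the other steps. In MR, the order was Cd74, H2-Ab1, H2-Aa, H2-Eb1, H2-DMb1, Cd40, H2-DMa, Cd80, Cd86 and Ciita. Here only Cd74 and H2-Ab1, and H2-Eb1 and H2-DMb1, were neighbours with separate intervals.

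On the log2 scale, H2-DMa (-1.34), Cd86 (-1.93) and Cd40 (-1.52) were below -1, and 0 of the 10 genes were above 1. Over the 13383 genes tested, which had an unshared locus and reached a TPM of 1 in M or MR, 13.0% were below -1 and 21.1% above 1. A log2 ratio below 0 was found for 8 of the 10 genes and for 40.5% of all genes tested. The median of the 10 genes was -0.29, beside 0.21 for all genes tested. With 1 library per condition these shares are a description. At a threshold of 2, 0 of the 10 genes were past it in either direction, against 3.74% of all genes below -2 and 6.96% above 2. After median-of-ratios scaling 16.0% of all genes were below -1 and 17.8% above 1, and in coverage, the read depth per base, 9.98% and 15.6%. Under both of these settings, too, H2-DMa, Cd86 and Cd40 were the genes below -1 among the 10, and 0 were above 1. Median-of-ratios scaling lowered the median of all genes by 0.18, and relative to the median of all genes the class II chains and Cd74 lay between -0.42 and -0.06. The log2 ratio of H2-Ab1 was 0.15 in TPM and -0.04 after that scaling, so that its sign is not fixed. That of Cd74 was -0.22 after it, outside its counting interval in TPM, and the median of the chains was -0.26.

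Coverage, which the tables also list, gave another size for some of the genes. Per aligned Gb of each library, the log2 ratio of H2-DMa in coverage was -2.09, that of Cd40 was -1.21 and that of Cd80 was 0.09. For the Cd80 locus the listed coverage was 54.7% of what its FPKM corresponds to in M and 81.3% in MR, and for the Cd40 locus 79.8% and 99.8%. For the main H2-DMa locus in MR it was 40.3%. In coverage, H2-DMa and not Cd86 (-1.82) had the largest difference of the 10 genes. For Cd86 it was 100% in both, and its log2 ratio ranged from -2.11 to -1.82 over 7 alternatives. Across the same alternatives, H2-DMa ranged from -2.09 to -1.31 and Cd40 from -1.70 to -1.21.

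**Figure D2:**
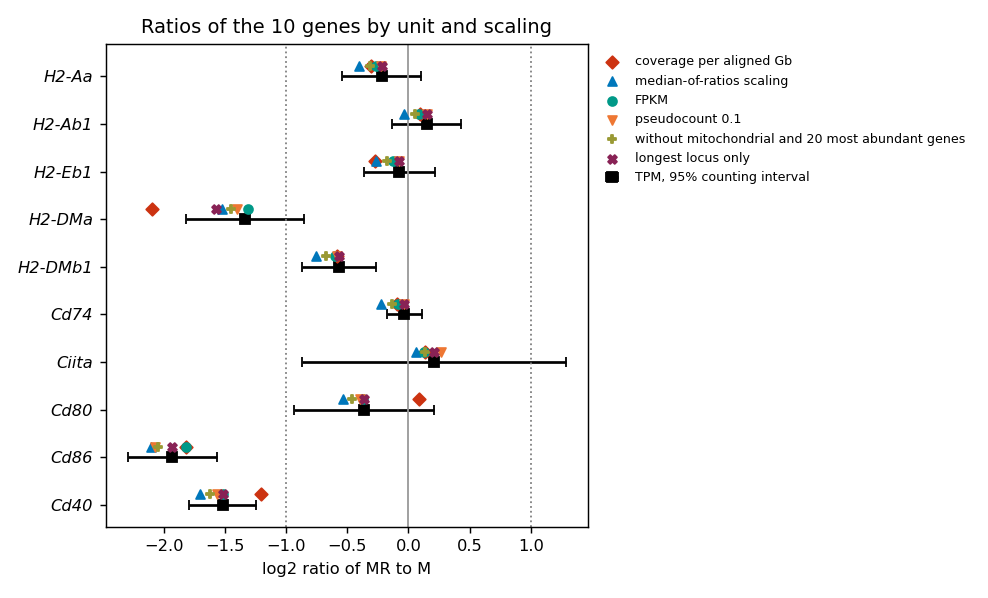
Log2 ratio of MR to M of the 10 genes in TPM (squares, with the 95% counting interval) and under other units, scalings and locus choices (coloured marks, dotted lines at -1 and 1). Cd86, Cd40 and H2-DMa lie below -1 under each setting shown, and the H2-DMa mark for coverage stands apart at -2.09.

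The assembled loci showed whether a whole transcript lay behind each value. Positions are on GRCm38 in GENCODE vM21. All 10 genes had a locus of their own, not shared with a neighbour. H2-Aa (chr17:34282744-34287823), H2-Ab1 (chr17:34257689-34269419), H2-Eb1 (chr17:34305867-34316674), H2-DMb1 (chr17:34153072-34160230) and Cd74 (chr18:60803848-60812652) each had 1 locus per library. Its ends differed between M and MR by at most 20 bases at the 5′ end and 4 bases at the 3′ end. These loci held 73.8% to 99.8% of the exon bases of their genes. Cd86 (chr16:36603869-36666081, minus strand) was assembled over 98.8% of its exon bases in M and 98.3% in MR. Cd80 (chr16:38455561-38496335) was assembled over 41.7% of its exon bases in both libraries, and its 5′ end, at 38457439 in M, lay between annotated first exons. Cd40 (chr2:165055627-165072948) had 5′ ends 12 bases apart and ended 425 bases earlier in MR.

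H2-DMa (chr17:34119541-34139101) was assembled from different 5′ ends in the cultures. In M, its locus began at 34135609, next to the first exon of the coding transcript H2-DMa-205, which starts at 34135628. In MR, the main locus began 12735 bases further upstream, at 34122874, inside the first exon of H2-DMa-201, from 34122832 to 34122934. This is the base at which the capitals begin in the upstream window shown above. The main MR locus had a TPM of 9.77 and a listed coverage of 5.22, and a smaller one from 34124950 to 34135568 had a TPM of 1.91. In M, a further locus within the gene and on its strand, with a TPM of 1.14, was not given to H2-DMa. The 3′ ends in M and MR were 9 bases apart. With the longest locus alone, the log2 ratio of H2-DMa was -1.57. Brd2 lies on the opposite strand, overlaps the 5′ part of the H2-DMa gene, and ends short of the MR locus. The tables give no reads per exon, so that the share of transcripts from either start is unknown.

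Ciita (chr16:10480059-10528418) was assembled only in pieces. The gene has alternative first exons, and its upstream promoter is known as the one used by dendritic cells and macrophages. In M, a locus with a TPM of 1.46 began at 10480169, inside the most upstream first exon, from 10480059 to 10480426, and ended at 10501841 in an internal exon. Another, with a TPM of 1.76, extended from 10511467 to 10513238, from the largest internal exon into the next. In MR, a locus with a TPM of 2.04 lay at the same internal exons, from 10512211 to 10513259, and another, with 1.85, lay nearer the 3′ end, from 10520968 to 10526229. Neither began at an annotated first exon. The pieces had a coverage of 2.45 to 2.96, so that the absence of a 5′ piece is at the limit of assembly, and a sum over pieces counts a transcript more than once.

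**Figure D3:**
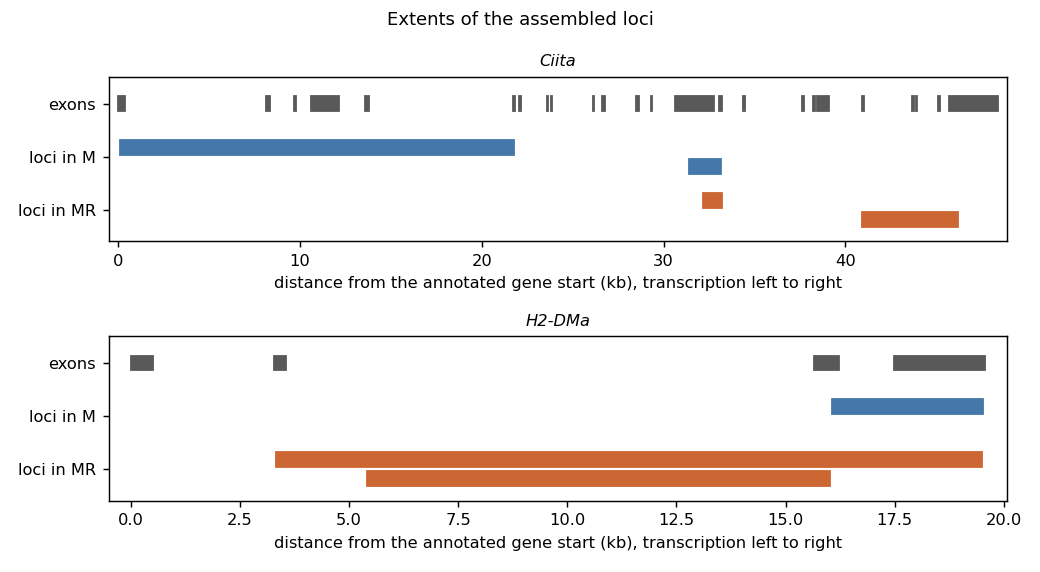
Extents of the loci given to Ciita and H2-DMa in M and MR, in kb from the annotated gene start, above which the exons are drawn. The M locus of H2-DMa begins 12735 bases downstream of the MR locus, and only in M does a Ciita locus begin at the 5′ end of the gene.

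Genes that act around the class II chains were compared through lists. As a scale for the counts on these and the marker lists, 13.0% of all genes tested were below -1 and 21.1% above 1. The processing list holds the proteases that cut antigen and Cd74 and the regulators of class II turnover. Of its 10 genes, 7 were below -1 and 1 above 1, with a median of -1.52. Ctss, the cathepsin that trims Cd74 in macrophages and dendritic cells, had a TPM of 6604 in M against 1931 in MR (-1.77). Lgmn, an asparaginyl endopeptidase, had 2494 and 329.9 (-2.91). March1, a ubiquitin ligase that removes class II and Cd86 from the surface, had 24.8 and 3.38 (-2.56). Ifi30, the thiol reductase of the endosome, was the 1 gene above 1, with 476 in M and 1523 in MR (1.68). The value of Ctsd (-1.75) rests on a locus shared with a neighbouring gene.

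The loading list adds H2-Oa and H2-Ob, which form an inhibitor of H2-DM, to Cd74 and the H2-DM genes. H2-Oa had 0.863 in M and 1.51 in MR, and H2-Ob had 2.96 in M but was without a locus in MR and was set to 0. Of the 6 genes on this list, H2-DMa and H2-Ob were below -1 and 0 above 1, with a median of -0.31.

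The transcription list joins Ciita with its X and Y box partners, with interferon gamma and Il10 signalling and with factors known to act on Ciita. Of 25 genes, 4 were below -1 and 1 above 1, with a median of -0.24, and the share below -1 is close to the 13.0% of all genes. The X box factors Rfx5, Rfxap and Rfxank had log2 ratios of 0.49, 0.41 and -0.18, and the Y box factors Nfya, Nfyb and Nfyc had -0.24, 0.33 and 0.58. Irf8, a transcription factor of the monocyte and dendritic lineage, had a TPM of 154.7 in M against 25.2 in MR (-2.57). Il10ra, the ligand-binding chain of the Il10 receptor, had 64.5 and 13.7 (-2.16). Prdm1, a repressor that acts on Ciita in plasma cells and on Irf8 in osteoclasts, had 3.96 and 82.7 (4.08). Irf1 (-0.39), Ifngr1 (-0.70) and Ifngr2 (0.33) stayed within 1 of 0.

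Other B7 and TNF family genes differed in direction. In the B7 list, 3 of 7 tested genes were below -1 and 1 above 1. Icosl, the ligand of Icos on T cells, had 26.3 in M and 2.11 in MR (-3.14), and Cd274, the inhibitory ligand PD-L1, had 136.1 and 54.0 (-1.32). Cd276, a B7 molecule with mostly inhibitory roles, had 7.18 and 25.9 (1.72). In the TNF family list, 3 of 8 tested genes were below -1 and 0 above 1, and these were Cd40, Tnfsf9 (5.90 in M and 1.10 in MR) and Tnfsf13b (3.95 and 0.905). Only 2 of these 8 genes reached a TPM of 10 in M or MR, so that most values on this list are low. Among 9 genes of adhesion and other T cell contact, 4 were below -1, with Slamf9 at -3.15 and Slamf7 at -2.80, and 1, Nectin2, was above 1 at 1.36.

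The genes that carry the Cd40 signal were mostly higher in MR, unlike Cd40 itself. Of 10 adaptors and NF-kappaB genes, 8 were above 1 and 0 below -1, with a median of 1.09. The count depends on the scaling, with 4 of 10 above 1 after median-of-ratios scaling (median 0.90) and 5 of 10 in FPKM, in coverage and without the most abundant genes. All 10 were above 0 in TPM. Traf1 had 21.8 in M and 148.1 in MR (2.71), Nfkb2 had 36.5 and 136.5 (1.87), and Traf6, which RANK also uses, had 12.3 and 32.7 (1.34). Several of the 10 serve other receptors of the TNF family as well.

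**Figure D4:**
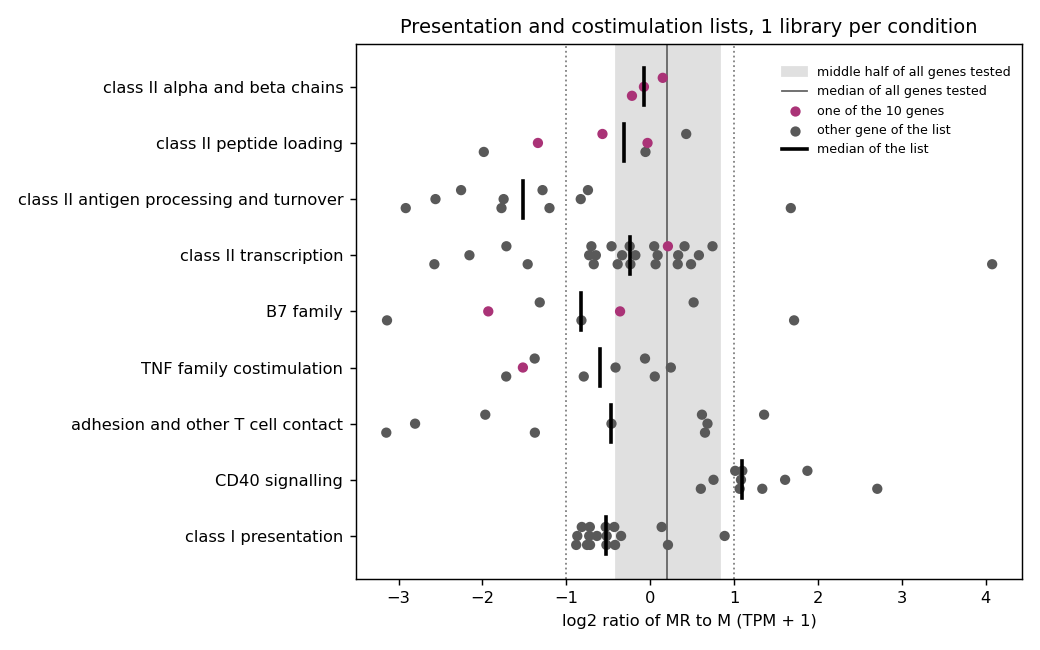
Log2 ratio of MR to M for each tested gene of 9 lists (1 point per gene, the 10 genes of the report in purple, black bars for list medians), over the median and interquartile range of all genes tested. Points of the processing list lie mainly left of -1, those of the Cd40 signalling list between 0.60 and 2.71, and the class II chains lie within 0.22 of 0.

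Of the 10 genes, 5 lie in the class II region of chromosome 17. From H2-K1 to Notch4, 20 of 26 protein-coding genes were tested, of which 4 were above 1 and 2, H2-DMa and H2-Ob, below -1, with a median of 0.05. Both shares are close to those over all genes tested, 21.1% above 1 and 13.0% below -1. The neighbours of H2-DMa were closer to 0. Brd2 had a log2 ratio of 0.41, and H2-DMb2 on the other side had -0.06. Between the H2-DM genes and the class II chains, Psmb9 (-0.53), Tap1 (-0.52) and Psmb8 (-0.42) were close to H2-DMb1 (-0.57), and Tap2 was at 0.89.

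**Figure D5:**
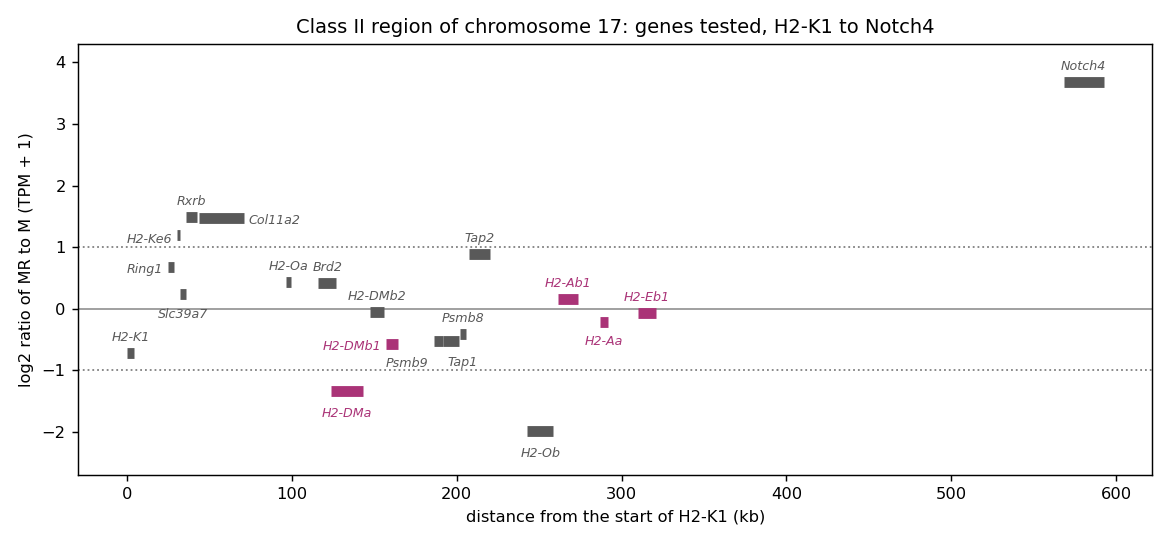
Log2 ratio of MR to M of the 20 tested protein-coding genes from H2-K1 to Notch4, drawn at their distance from the start of H2-K1 in kb, with the genes of the report in purple. H2-DMa at -1.34 and H2-Ob, set to 0 in MR, lie below -1, and H2-Ab1, H2-Aa and H2-Eb1 lie near 0.

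Markers were read to see which cells the cultures held. Macrophage genes were present in both, with Csf1r at 697 in M and 872 in MR and Cd68 at 2607 and 2171, and all 10 osteoclast markers were above 1. Of 9 macrophage markers, 8 were below 0 and 5 below -1, with a median of -1.82, and Csf1r was the 1 above 0. Fcgr1 had the lowest ratio, with 1158 in M and 60.5 in MR (-4.24). B cells and dendritic cells carry class II and costimulatory genes themselves. The 12 dendritic markers summed to 59.2 TPM in M against 47.5 in MR, with no locus for Cd209a in either and none for Xcr1 and Ccr7 in MR. The 10 B cell markers summed to 44.4 and 18.0, of which Cd22 made up 22.4 in M and 4.66 in MR, and Ebf1 had no locus in either. Of 8 T cell markers, Cd4 had 13.0 in M and 9.82 in MR, Cd247 had 0.754 in MR alone, and the other 6, Cd3d, Cd3e and Cd3g among them, had no locus. Neutrophil transcripts were more abundant, with a sum of 1376 TPM in M and 960.4 in MR over 8 markers, of which 7 were below 0 and 0 past 1 (median -0.49). The 8 stromal markers summed to 23.6 and 39.2, with 3 above 1 and 2 below -1 (median 0.39). The part of these cells in the values of the 10 genes was not tested. In such bulk RNA, fewer cells of a type and less RNA per cell cannot be told apart.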

How the data were processed

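RNA-seq of 2 libraries, 1 per condition, was used as deposited. Adaptors were removed by the authors with Trim Galore, and paired reads of 150 bases were aligned to mm10 with HISAT2 and assembled with StringTie on the GENCODE vM27 annotation, whose positions are on GRCm39. The deposited tables hold coverage (a signal per base), FPKM and TPM. TPM as scaled by the authors adds up to 1000000 over the assembled loci. Only these loci were used, 19422 in M and 19922 in MR. Entries with gene names were left out, since their positions do not refer to mm10. Tool versions are not given in the sources used here.

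Each locus was given to the GENCODE vM21 gene whose exon bases it overlapped most, with a minimum of 50 bases, on its own strand or, for loci without one, on either. Where it also spanned 50% or more of the exon bases of a further coding gene, it was called shared. Unshared loci were found for 14323 genes and shared loci for 339, and 208 genes within a neighbour's locus were given no value. TPM was summed per gene, and a gene without a locus was set to 0. Log2 ratios used a pseudocount of 1 and a minimum TPM of 1 in at least 1 library.

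The commonest quotient of coverage and FPKM gave the aligned bases, 3.63 Gb in M and 2.98 Gb in MR. Read pairs of 300 bases were estimated per gene from FPKM or coverage, whichever gave fewer, and exact Poisson intervals of levels and Wilson intervals of ratios were computed from them. The ratio intervals are centred on the TPM ratio and take only their width from the read pairs. Both kinds of interval cover counting error only. The 10 genes and the 16 lists were chosen with earlier results of these data known. All genes of the lists may be named. The motifs AACNGATG and TGACGTCA were added after the promoter windows had been read. The values of 1 gene on the transcription list, and 1 motif, are not reported here. Computations ran in Python 3.11.15 (pandas 2.3.3, numpy 2.4.6 and scipy 1.17.1), with plots by matplotlib 3.10.9.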

Additional observations from a re-analysis of the deposited data

How the results depend on the processing

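The 11 alternatives were another pseudocount (0.1), FPKM, no filter, a minimum TPM of 10, median-of-ratios scaling, TPM without mitochondrial and the 20 most abundant genes, coverage per aligned Gb, a log2 threshold of 2, the longest locus alone, loci on the strand of the gene alone, and genes with their own locus alone in the lists. Of 292 values under alternatives, 276 stayed within the interval of the main value or, for counts, within 1.5 times, and 16 moved beyond it. Of these values, 170 are list medians, whose interval spans ratios of the list's own genes and can be wide, so that staying within it is a weak check. The adhesion median went from -0.46 to -1.54 in coverage and stayed within it. So did the B cell median, from -0.59 to -2.05 at a minimum TPM of 10, where 1 gene was tested. Some alternatives could not move a value. All 10 genes had own loci and passed the filter, so their counts and median were fixed without it and with own loci alone. With loci on the strand of the gene alone, all 10 ratios and all list medians equalled the main values. Such values are among the 276 and are no check. No value past 1 changed sign. Of 250 ratios and medians, 6 had the other sign, all with main values within 1 of 0. These were H2-Ab1 (-0.04, median-of-ratios), Cd80 (0.09, coverage), the T cell list without a filter (0.22), and the chromosome 17 region in median-of-ratios scaling (-0.12), without abundant genes (-0.05) and with the longest locus (-0.15). The median of the class II chains moved from -0.07 to -0.26 in median-of-ratios scaling and to -0.27 in coverage. The other moved list medians were those of the T cell list, with 1 gene tested, or 2 without a filter. Of the single genes, Cd74 moved to -0.22 under median-of-ratios scaling, and H2-DMa moved to -2.09 and Cd40 to -1.21 in coverage. The count of 3 lower genes among the 10 became 0 at a log2 threshold of 2, which admits fewer by construction. Over all genes, 2818 were higher and 1745 lower, and these became 1590 and 973 at a minimum TPM of 10, and 932 and 501 at a log2 threshold of 2. The median of the 10 genes ranged from -0.47 to -0.29 over 10 alternatives. No paired analysis was possible because each condition has 1 library, and for the same reason no replicate could be left out. Since the tables hold no read counts, the precision is approximate, and it is lowest in MR for Ciita and H2-DMa, with about 9 and 38 read pairs.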

Other observations

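Class I presentation, which shows cytosolic peptides to CD8+ T cells, was compared beside the class II genes. Of its 17 genes, 0 were above 1 or below -1 and 14 were below 0, with a median log2 ratio of -0.53 beside 0.21 for all genes tested. Over all genes tested, 21.1% were above 1, 13.0% below -1 and 40.5% below 0. The heavy chains H2-K1 and H2-D1 had a TPM of 3926 and 5397 in M and 2383 and 2927 in MR, and B2m, their light chain, had 9881 and 5611. Related class I genes can share reads, which the tables do not resolve. Nlrc5, the coactivator of class I genes that is related to Ciita, had 82.1 in M and 49.2 in MR (-0.73). Tap2, a subunit of the peptide transporter, was at 0.89, while its partner Tap1 was at -0.52. The class II chains H2-Aa, H2-Eb1 and H2-Ab1 were at -0.22, -0.07 and 0.15. On the class I list, Tap2, Canx (0.21) and Calr (0.14) were above 0. After median-of-ratios scaling 3 of the 17 genes were below -1, and in coverage 2. These counts are close to the shares of all genes below -1 in the same settings, 16.0% and 9.98%.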
